A study of Homo sapiens with 8 samples.

Results

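The genes described here are 10 known outputs of the kinase ERK: the dual-specificity phosphatases DUSP4, DUSP5 and DUSP6, the Sprouty genes SPRY2 and SPRY4, the Sprouty-related genes SPRED1 and SPRED2, the ETS transcription factors ETV4 and ETV5, and FOSL1, which encodes the AP-1 subunit FRA-1. They were picked by gene symbol from the 58302 genes of the files, and 10 of 10 passed the filter on low counts that left 17676 genes for testing. The cells are A549, an established human lung adenocarcinoma line, and RNA sequencing gave the levels. There were 4 groups with 2 libraries each: A549 cells with a short hairpin RNA (shRNA) against AXL, cells with a control shRNA, cells given 40 nM TP-0903, a drug that blocks the kinase activity of the receptor AXL, and control cells. Every library has a P number of unstated meaning, P15 or P3 for the AXL shRNA and control shRNA libraries and P17 or P4 for the TP-0903 and control libraries. The sources used here do not give the hairpin sequences, the vehicle of the control cells or the length of treatment. The labels call the libraries biological replicates without saying whether these were separate cultures, so p-values measure only the spread between these samples.

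ERK is the last kinase of the cascade that runs from receptor tyrosine kinases through RAS, RAF and MEK, and its activity is read in part from the genes it switches on. DUSP6 in the cytoplasm and DUSP4 and DUSP5 in the nucleus remove the activating phosphates from ERK, Sprouty proteins interrupt the path from receptors to RAS, and SPRED proteins act on RAS and RAF, SPRED1 by bringing the RAS-inactivating protein neurofibromin to the membrane. ETV4, ETV5 and FRA-1 are transcription factors whose amount or activity goes up with ERK signalling, and FRA-1 is known for its part in invasion and in mesenchymal gene expression of carcinoma cells. In lung cancers driven by RAS or receptor mutations, sets of DUSP, SPRY and ETV transcripts are used as a gauge of ERK output.

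FOSL1 rose with AXL shRNA and, close to the threshold, with TP-0903. SPRED2 fell with AXL shRNA, as did SPRED1 on counts though not once transcript length was taken into account, and the 7 other genes did not pass the test in either comparison. With the P number as a block, ETV4 was lower in both comparisons, and with AXL shRNA DUSP4 was lower and SPRY4 higher. That fit called more of all tested genes too: 25.6% higher and 26.1% lower with AXL shRNA, and 12.9% and 13.4% with TP-0903. DUSP4, DUSP6 and SPRY2 stood at higher levels in both kinds of hairpin library than in the control libraries without a hairpin, with the control hairpin as well as with the AXL hairpin.

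The sequences of SPRED1 and SPRED2, the members that fell on counts with AXL shRNA, are given first with those of other members that hold a site, so that the transcripts and promoters behind these values can be seen. The 3′ UTRs were read for TGAAGGAA and for its 7-base parts TGAAGGA and GAAGGAA, on the transcript strand, since genes that hold these letters had lower values with AXL shRNA in an earlier search over these same libraries; the match is thus no independent evidence about the members. Sites are from GENCODE release 29 transcripts on GRCh38, 5′ to 3′, with the matched letters in capitals and with DNA letters. SPRED2, SPRED1 and ETV4 each hold 1 GAAGGAA, ETV5 holds 1 TGAAGGA, and DUSP5 holds 2 copies of the 8-base sequence.
SPRED2, chromosome 2, 243 bases after the stop codon: tgttctgagGAAGGAAccttcgcca
SPRED1, chromosome 15, 219 bases after the stop codon: gtatttgcaGAAGGAAaccatttct
ETV4, chromosome 17, 172 bases after the stop codon: agtcattggGAAGGAAaagtggaga
ETV5, chromosome 3, 1553 bases after the stop codon: cctcgtatgTGAAGGAggcagtgct
DUSP5, chromosome 10, 186 bases after the stop codon: tctcgggacTGAAGGAAggccaagcc
DUSP5, chromosome 10, 388 bases after the stop codon: aattcatttTGAAGGAAgcacaattt
No such site was found in the 3′ UTR transcripts used for DUSP4, DUSP6, SPRY2, SPRY4 and FOSL1. Among 13796 genes with a 3′ UTR of at least 50 bases, 915 (6.63%) held the 8-base sequence and 3575 (25.9%) held it or a 7-base part. With AXL shRNA the median log2 fold change was -0.35 for genes with the 8-base sequence, -0.13 for the 2660 genes with a 7-base part alone and 0.06 for the 10221 genes with neither. With TP-0903 the same medians were -0.01, -0.0011 and -0.02. The sequence was chosen on the AXL shRNA values of these libraries, so the order of those medians is no independent evidence either. Length of the 3′ UTR was not taken into account. DUSP5, with 2 copies of the 8-base sequence, had a log2 fold change of 0.06 with AXL shRNA (95% interval of the fold 0.53 to 2.06), and its sign changed on both TPM scales (-0.20 on each) and without control shRNA P15 (-0.17) or AXL shRNA P3 (-0.27), so these data give no direction for it.

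Promoters were read for the ETS motif CCGGAAG, the AP-1 motif TGANTCA and the CRE motif TGACGTCA, on both strands, in windows from 250 bases before to 50 bases after each RefSeq start on GRCh38.p14. RefSeq windows were matched for 5 of the 10 members. The ETS motif is in 10.3%, the AP-1 motif in 7.71% and the CRE motif in 1.85% of all 35116 such windows. Windows of SPRED1 and of both listed starts of SPRED2 are shown, because both genes fell on counts with AXL shRNA; capitals mark AP-1 matches.
SPRED1, chr15:38252586-38252885, plus strand: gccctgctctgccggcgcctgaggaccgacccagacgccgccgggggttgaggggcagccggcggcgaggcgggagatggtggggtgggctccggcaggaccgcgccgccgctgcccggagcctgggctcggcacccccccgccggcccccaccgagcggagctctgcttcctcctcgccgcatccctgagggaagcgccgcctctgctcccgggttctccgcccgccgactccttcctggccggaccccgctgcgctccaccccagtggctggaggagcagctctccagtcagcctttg
SPRED2, first start, chr2:65432550-65432849, minus strand: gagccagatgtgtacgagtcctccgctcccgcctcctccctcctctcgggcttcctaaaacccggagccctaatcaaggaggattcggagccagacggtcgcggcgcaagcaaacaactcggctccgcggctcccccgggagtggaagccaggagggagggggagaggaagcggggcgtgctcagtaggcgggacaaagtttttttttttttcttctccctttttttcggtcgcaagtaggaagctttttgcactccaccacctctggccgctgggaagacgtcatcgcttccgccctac
SPRED2, second start, chr2:65366729-65367028, minus strand: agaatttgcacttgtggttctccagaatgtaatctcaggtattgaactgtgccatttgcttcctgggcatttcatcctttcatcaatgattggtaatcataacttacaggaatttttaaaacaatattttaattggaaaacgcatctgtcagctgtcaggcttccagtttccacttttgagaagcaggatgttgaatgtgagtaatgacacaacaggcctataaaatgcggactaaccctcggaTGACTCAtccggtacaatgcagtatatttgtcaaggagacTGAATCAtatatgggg
The second SPRED2 window holds 2 AP-1 matches, 1 on each side of the start, and the other windows printed hold none of these motifs. The windows of SPRY4, DUSP6 and SPRY2 also hold none of them.

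As a check on the labels, the targeted gene AXL had 55.4 and 63.0 CPM (read counts relative to the scaled library total) with AXL shRNA, against 85.1 and 139 CPM with control shRNA, P15 before P3 here and below. Its level was lower in both hairpin libraries than in both of their controls. The log2 fold change was -0.92 (SE 0.42, adjusted p = 0.12 in edgeR), and with the P number as a block it was -0.89 (adjusted p = 8.58e-04 in edgeR). It passed in 3 of 17 other settings: with the block, with no filter on low counts and with the 4 libraries of the comparison alone. In edgeR the adjusted p was 4.45e-08 with no filter and 0.0481 with the 4 libraries alone. The fit with no filter tested 31048 genes. Its far smaller p rests on the same 2 libraries per group and is not stronger evidence. With TP-0903, AXL had 280 and 153 CPM, against 216 and 105 CPM in control cells, P17 before P4 here and below, ranges that overlap, and the log2 fold change was 0.43 (SE 0.41, adjusted p = 0.544 in edgeR; 0.0354 with the block).

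Library totals ran from 30067011 to 44217023 expected counts, and the members had between 244 and 19554 counts in a library. A549 identity was checked with markers: 8 of 8 epithelial and NRF2-driven markers of the line were detected in each group, and CDKN2A, which is deleted in A549, was at 0 in 8 of 8 libraries. The summed CPM of the 8 A549 markers was 35100 to 41100 with AXL shRNA, 16900 to 20400 with control shRNA, 18400 to 25500 with TP-0903 and 21300 to 24900 in control cells, and 4 of the 8 rose with AXL shRNA. The 5 leukocyte markers summed to 17 to 20, 18.7 to 28.5, 12 to 16.8 and 18.4 to 19.2 CPM in the same order of groups. Most of each sum was CD68, with group means from 12.1 to 16.6 CPM. CD79A averaged 2.18 CPM with AXL shRNA against 0.274 with control shRNA, and CD14 2.79 against 6.73. In edgeR 1 of the 3 tested leukocyte markers was higher and 1 lower with AXL shRNA. CD3E was at 0 in 3 groups, and PTPRC in control cells. The 5 fibroblast markers summed to 26.6 to 42.6 CPM with AXL shRNA, 11.6 to 14.6 with control shRNA, 9.69 to 15 with TP-0903 and 15.1 to 17.9 in control cells. The 3 endothelial markers summed to 3.15 to 9.87, 0.329 to 2.74, 0.644 to 1.79 and 0.892 to 1.73 CPM in that order. The part of these shifts in the results below was not tested, and in bulk samples fewer cells of a kind and less RNA per cell cannot be told apart.

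Per length, in TPM, the deposited length-scaled unit, DUSP4 was the most abundant member with control shRNA (150 ± 1.30 TPM), with TP-0903 (69.2 ± 0.18) and in control cells (64.1 ± 7.73; SD, n = 2 libraries each). With AXL shRNA the first place went to FOSL1 at 103 ± 23.2 TPM, but DUSP4 at 96.0 ± 12.3 TPM lay within that spread. SPRY4 was the least abundant in all 4 groups, at 4.41 ± 0.45 TPM with AXL shRNA, 4.09 ± 0.38 with control shRNA, 3.16 ± 0.71 with TP-0903 and 3.14 ± 0.74 in control cells. In control cells ETV4 (34.0 ± 13.0), DUSP5 (28.9 ± 16.4), ETV5 (27.1 ± 5.65) and SPRED2 (23.0 ± 5.05 TPM) followed DUSP4 and overlapped one another. FOSL1 came next at 16.1 ± 0.26 TPM, above SPRY2 (8.32 ± 1.91), SPRED1 (7.03 ± 0.58) and DUSP6 (5.50 ± 2.55), which overlapped. With AXL shRNA, ETV5 (24.0 ± 4.92), ETV4 (21.7 ± 3.90) and SPRY2 (20.8 ± 1.58 TPM) overlapped one another.

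**Figure D1:**
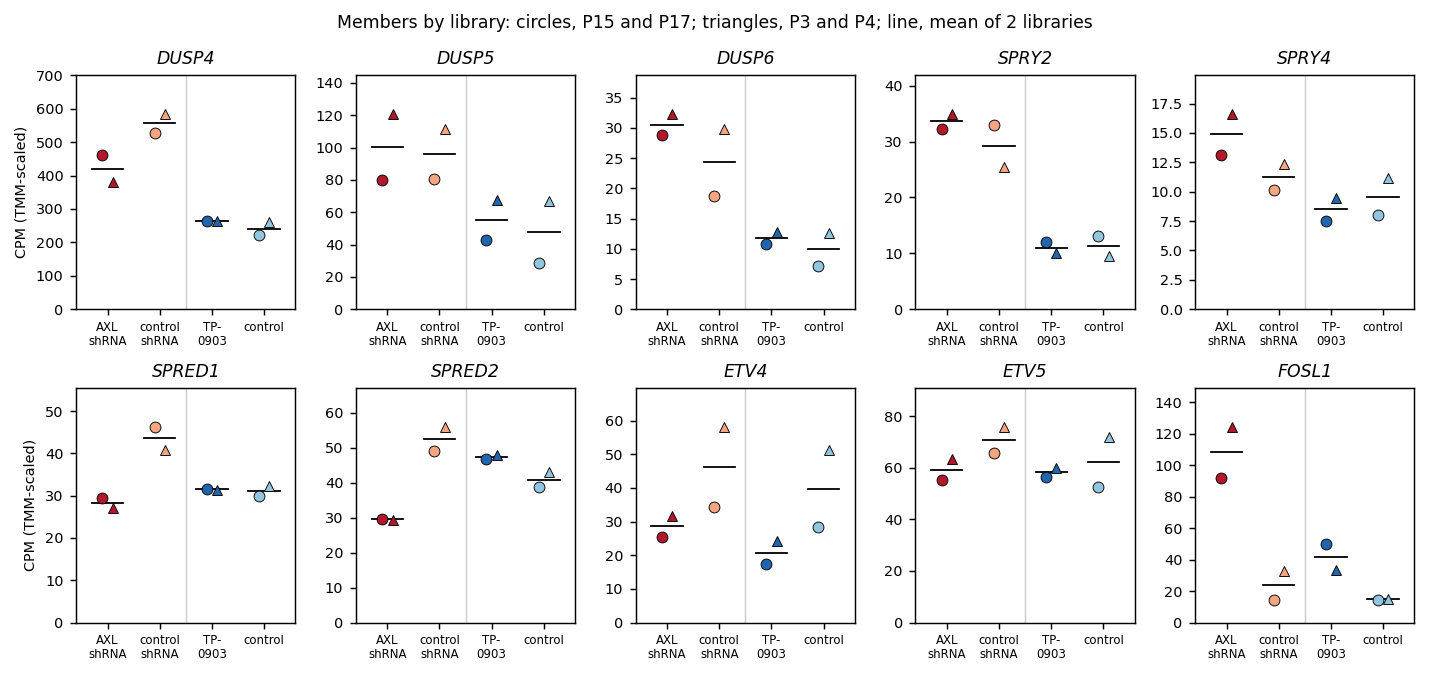
CPM of the 10 members in the 8 libraries, 1 panel per gene, with a line at the mean of the 2 libraries of a group; circles mark P15 and P17, triangles P3 and P4. FOSL1 is highest with AXL shRNA (92.04 and 124 CPM), SPRED1 and SPRED2 are lower with AXL shRNA than with control shRNA, and DUSP4, DUSP6 and SPRY2 are higher in the hairpin libraries than in the libraries without a hairpin.

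Cells with the AXL hairpin were first set against cells with the control hairpin, which shows how these genes stand when AXL is targeted. Of the 10 members 1 rose, where 18.5% of the tested genes rose, and 2 fell, where 19% of the tested genes fell, so the share of members called was close to that of all genes. The median log2 fold change was -0.10 for the members and -0.01 for all genes tested. Among the phosphatases, DUSP4 had 463 and 379.6 CPM with AXL shRNA, against 529 and 585 CPM with control shRNA. Both values with AXL shRNA lay under both values with control shRNA. The log2 fold change of -0.40 (SE 0.14, adjusted p = 0.0613 in edgeR) did not pass, and it passed with the P number as a block (-0.41, adjusted p = 0.0303). DUSP5 had 79.7 and 121 CPM against 80.5 and 112 CPM, values that overlap and follow the P number, with a fold of 1.04 (95% interval 0.53 to 2.06). DUSP6 had 28.7 and 32.4 CPM against 18.8 and 29.8 CPM, which overlap, with a fold of 1.26 (95% interval 0.772 to 2.05). Neither passed (adjusted p = 0.916 for DUSP5 and 0.421 for DUSP6 in edgeR), and their intervals leave room for changes of about 2-fold.

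Of the Sprouty genes, SPRY2 had 32.3 and 35.0 CPM with AXL shRNA, against 32.9 and 25.5 CPM with control shRNA, and the groups overlap. Its fold was 1.15 (95% interval 0.832 to 1.60, adjusted p = 0.456 in edgeR). SPRY4 had 13.2 and 16.6 CPM against 10.1 and 12.4 CPM, with both AXL shRNA libraries above both controls. The log2 fold change of SPRY4 was 0.41 (SE 0.24, adjusted p = 0.214 in edgeR; 0.0426 with the block).

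SPRED2 (ENSG00000198369, minus strand of chromosome 2 at 65310851 to 65432637, GRCh38) fell in both libraries, to 29.7 and 29.4 CPM with AXL shRNA, against 49.1 and 56.0 CPM with control shRNA. The 2 AXL shRNA values were nearly equal and far under both controls, at 60.4% (P15) and 52.5% (P3) of the control library of the same number. The log2 fold change was -0.83 (SE 0.11, adjusted p = 0.00186 in edgeR), and it stayed past the threshold in 17 of 17 other settings, with adjusted p from 6.82e-07 to 0.015. SPRED2 was also below the level of control cells without a hairpin (log2 fold change -0.47, adjusted p = 0.0156 in edgeR).

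SPRED1 (ENSG00000166068, plus strand of chromosome 15 at 38252326 to 38357249) fell to 29.6 and 27.0 CPM with AXL shRNA, against 46.2 and 40.9 CPM with control shRNA, and the groups do not overlap. The log2 fold change was -0.62 (SE 0.12, adjusted p = 0.00616 in edgeR). This call rests on the counts alone. The deposited effective length of SPRED1, an average over its transcripts weighted by their estimated abundance, was 4761 and 3992 bases with AXL shRNA, against 6297 and 6074 bases with control shRNA, and taking it into account as an offset gave a log2 fold change of -0.15 (adjusted p = 0.374 in edgeR). On log2(TPM + 1) the change was -0.33 (adjusted p = 0.155 in limma). Against control cells without a hairpin, which had 29.9 and 32.2 CPM, the AXL shRNA level of SPRED1 did not pass (-0.14, adjusted p = 0.394 in edgeR), while control shRNA stood above control cells (0.49, adjusted p = 0.0447).

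Among the transcription factors, FOSL1 (ENSG00000175592, minus strand of chromosome 11 at 65892049 to 65900573) rose most of the members, to 92.04 and 124 CPM with AXL shRNA, against 14.5 and 32.95 CPM with control shRNA. Each AXL shRNA library was well above both controls, 6.34-fold (P15) and 3.77-fold (P3) over the control library of the same number. The fitted fold was 4.56 (95% interval 2.45 to 8.47; log2 fold change 2.19, SE 0.38, adjusted p = 0.00471 in edgeR), and it passed in 17 of 17 other settings. ETV4 had 25.4 and 31.8 CPM against 34.3 and 58.1 CPM, lower in both AXL shRNA libraries than in both controls. Its log2 fold change of -0.69 (SE 0.35, adjusted p = 0.158 in edgeR) did not pass, and with the P number as a block it did (-0.66, adjusted p = 0.00481). ETV5, the near relative of ETV4, had 55.2 and 63.3 CPM against 65.7 and 75.8 CPM, also without overlap, with a log2 fold change of -0.25 (SE 0.17, adjusted p = 0.265 in edgeR). With the block the counts of members called were 2 higher (FOSL1 and SPRY4) and 4 lower (SPRED1, SPRED2, DUSP4 and ETV4), where 25.6% of the tested genes were higher and 26.1% lower in that fit.

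The second comparison, TP-0903 against control, asked what the drug changes. No kinase activity was measured, so whether changes with the drug run through AXL was not tested. Of the 10 members 1 rose, where 4.9% of the tested genes rose, and 0 fell, where 6.35% of the tested genes fell. At an unadjusted p under 0.05 in edgeR, 1 member was lower, ETV4, which was also lower in DESeq2 (adjusted p = 0.047) and with the block; limma-voom called 0 members in either direction. The median log2 fold change was 0.08 for the members and -0.01 for all genes tested. FOSL1 had 50.2 and 33.7 CPM with TP-0903, against 14.6 and 14.8 CPM in control cells. Both treated libraries lay above both controls, and the controls were nearly equal. The fitted fold was 2.85 (95% interval 1.54 to 5.26; log2 fold change 1.51, SE 0.38, adjusted p = 0.0447 in edgeR). The call is near the threshold: it held in 9 of 17 other settings, and in 2 of 8 fits that left out a library, with adjusted p up to 0.236 without TP-0903 P17, where the log2 fold change was 1.19. It was also lost without control P17 (adjusted p = 0.19), control P4 (0.172), TP-0903 P4 (0.0628), AXL shRNA P15 (0.0587) or AXL shRNA P3 (0.0605). With the block the adjusted p was 0.00107.

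ETV4 had 17.3 and 24.2 CPM with TP-0903, against 28.3 and 51.4 CPM in control cells. Each treated library was lower than both controls, at 61% (P17) and 47.2% (P4) of the control library of the same number, the same side as with AXL shRNA. The log2 fold change was -0.94 (SE 0.35, adjusted p = 0.131 in edgeR), and with the block it was -0.90 (adjusted p = 0.00261). ETV5 had 56.5 and 59.8 CPM against 52.6 and 72.1 CPM, where the treated values lay between the controls (fold 0.933, 95% interval 0.712 to 1.22).

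The phosphatases did not pass with TP-0903. DUSP4 had 265 and 265 CPM against 221 and 261 CPM in control cells, a fold of 1.10 (95% interval 0.871 to 1.39, adjusted p = 0.592 in edgeR). DUSP5 had 42.7 and 67.9 CPM against 28.7 and 66.8 CPM (fold 1.16, 95% interval 0.586 to 2.29). DUSP6 had 10.8 and 12.8 CPM against 7.22 and 12.6 CPM (fold 1.19, 95% interval 0.725 to 1.96). DUSP5 and DUSP6 differed more between P17 and P4 than between drug and control, and their intervals are wide. SPRY2 had 11.97 and 10.1 CPM against 13.1 and 9.57 CPM (fold 0.971, 95% interval 0.696 to 1.35), and SPRY4 had 7.53 and 9.49 CPM against 7.98 and 11.2 CPM (fold 0.888, 95% interval 0.604 to 1.31). SPRED1 had 31.6 and 31.4 CPM against 29.9 and 32.2 CPM, with a 95% interval of 0.838 to 1.22 around a fold of 1.01. SPRED2 had 46.7 and 47.9 CPM against 38.7 and 43.1 CPM, higher in both treated libraries, with a fold of 1.16 (95% interval 0.964 to 1.39, adjusted p = 0.272 in edgeR). The effective length of SPRED1 was again shorter in the treated libraries, 5110 and 5110 bases against 6330 and 6091 bases, and that of SPRED2 was 2765 and 2791 bases against 2791 and 2287 bases.

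**Figure D2:**
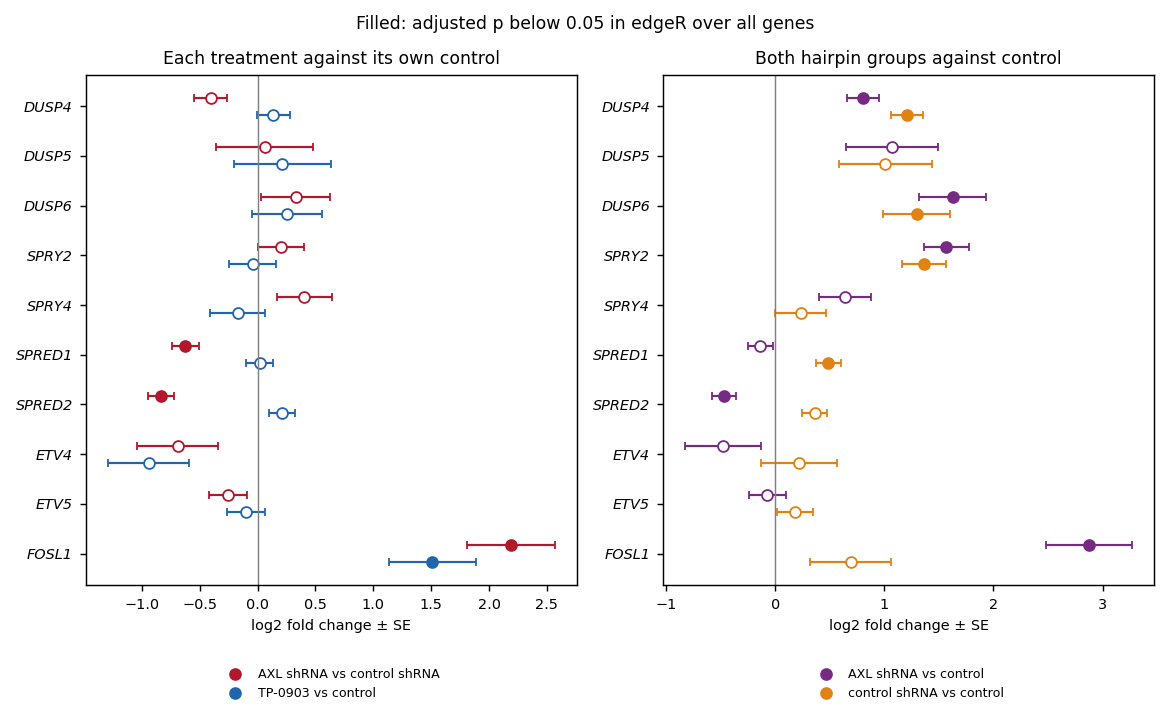
Log2 fold changes with their SE for the 10 members, on the left for each treatment against its own control and on the right for both hairpin groups against control cells; filled circles passed an adjusted p of 0.05 over all genes in edgeR. On the left FOSL1 (both comparisons), SPRED1 and SPRED2 (AXL shRNA) are filled; on the right DUSP4, DUSP6 and SPRY2 are filled in both groups.

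Whether the hairpin and the drug moved a gene differently was tested as the TP-0903 effect minus the AXL shRNA effect. Of the members 2 passed as higher, where 9.82% of the tested genes did, and 0 passed as lower, where 10.8% did. DESeq2 and limma-voom also called 2 higher and 0 lower, and 0 were lower at an unadjusted p under 0.05 in edgeR. For SPRED2 the difference was 1.04 on the log2 scale (SE 0.16, adjusted p = 0.00559 in edgeR), with lower CPM in both AXL shRNA libraries and higher CPM in both TP-0903 libraries than in their controls. In TPM the TP-0903 libraries stood on both sides, at 1.19 (P17) and 0.887 (P4) times the control library of the same number. It passed in 16 of 16 other settings. For SPRED1 the difference was 0.64 (SE 0.17, adjusted p = 0.0328 in edgeR), and it passed in 5 of 16 other settings, in 1 of 8 fits that left out a library (the one without control shRNA P3; adjusted p 0.0568 to 0.106 in the others) and not with effective lengths as offsets (0.46, adjusted p = 0.115). For FOSL1 the difference was -0.68 (SE 0.52, adjusted p = 0.397 in edgeR; 95% interval of the ratio of folds 0.268 to 1.46), so the data do not tell the size of its rise apart between hairpin and drug. For ETV4 it was -0.25 (SE 0.49, adjusted p = 0.759; interval 0.378 to 1.87). The difference of DUSP4, 0.54 (SE 0.20, adjusted p = 0.10 in edgeR), passed with the block (0.55, adjusted p = 0.0487).

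The starting levels of the 2 controls differed for part of the members. Between control shRNA and control cells, 4 of the 10 members were higher, where 3.06% of the tested genes were, and 0 were lower, where 6.09% were; all 10 fitted changes were above 0, so 0 were lower at an unadjusted p too. The higher ones were DUSP4, DUSP6, SPRY2 and SPRED1. In fits without 1 library, 1 member passed without control shRNA P15, 3 passed without control P4 and 2 passed without each of the others. The P numbers differ between these groups as well, so the hairpin and whatever the P number stands for cannot be told apart here. DUSP4 was 2.31-fold as high with control shRNA as in control cells (529 and 585 against 221 and 261 CPM; adjusted p = 0.00375 in edgeR). SPRY2 was 2.57-fold as high (32.9 and 25.5 against 13.1 and 9.57 CPM; adjusted p = 0.0097), and DUSP6 2.46-fold (18.8 and 29.8 against 7.22 and 12.6 CPM; adjusted p = 0.0441). In each of these genes the lower hairpin library was above the higher control library. DUSP5 had a fold of 2.01 with a wide interval (1.01 to 4, adjusted p = 0.175 in edgeR), and SPRY4, ETV4 and ETV5 had folds of 1.17, 1.16 and 1.14 that did not pass.

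AXL shRNA libraries, set against the same control cells, had 4 members higher, where 17.3% of the tested genes were, and 1 lower, where 19.5% were. This comparison shares its control libraries with the one before, so the values are only placed side by side. DUSP4 was 1.74-fold, DUSP6 3.08-fold and SPRY2 2.96-fold as high with AXL shRNA as in control cells, against 2.31-fold, 2.46-fold and 2.57-fold with control shRNA. FOSL1 was 7.35-fold as high with AXL shRNA (95% interval 3.89 to 13.9, adjusted p = 0.0018 in edgeR) and 1.61-fold with control shRNA (0.879 to 2.96, adjusted p = 0.28). For FOSL1, then, the libraries with the control hairpin did not pass against control cells, while for DUSP6 and SPRY2 both hairpin groups did. Within the control shRNA group FOSL1 itself varied from 14.5 CPM (P15), close to the 14.6 and 14.8 CPM of control cells, to 32.95 CPM (P3).

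**Figure D3:**
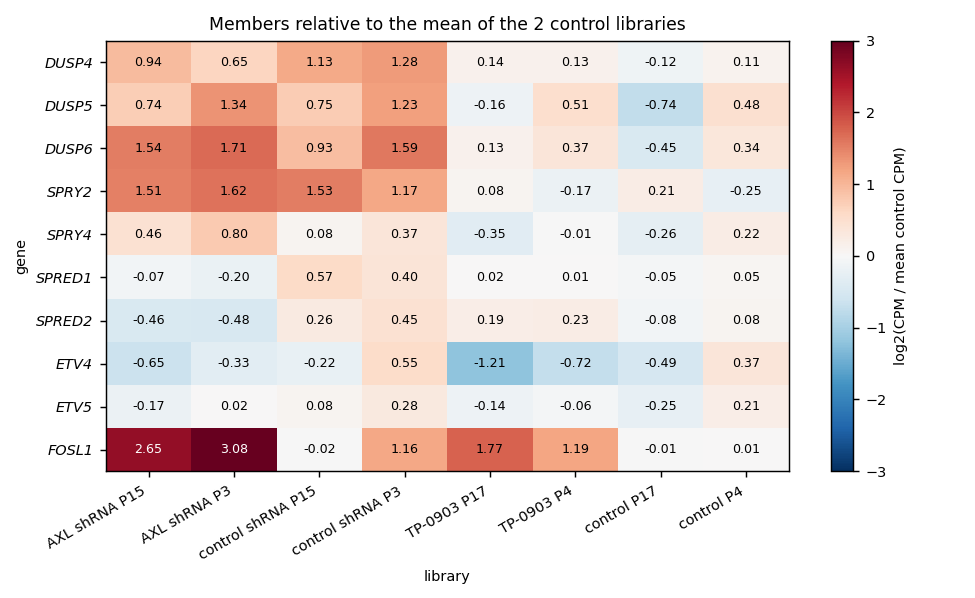
Log2 of the CPM of each library over the mean of the 2 control libraries, 1 row per member and 1 column per library; red is higher and blue lower than control cells. The rows of DUSP4, DUSP5, DUSP6, SPRY2 and SPRY4 are above 0 in all 4 hairpin libraries, SPRY4 by only 0.083 in control shRNA P15. Control P4 is also above 0 for DUSP4 (0.114), DUSP5 (0.485), DUSP6 (0.345) and SPRY4 (0.223), and below 0 for SPRY2 (-0.247). SPRED2 is blue with AXL shRNA (-0.46 and -0.48), ETV4 is lowest with TP-0903 (-1.21 and -0.72), and FOSL1 is reddest with AXL shRNA (2.65 and 3.08).

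The genes whose log2 CPM ran most like that of DUSP6 over the 8 libraries, among 11308 genes that averaged 5 CPM or more, were RNF6 (Pearson r = 0.991), AL590666.2 (0.978), PAPPA-AS1 (0.977), UCHL1 (0.975) and KLHL5 (0.975). For SPRY4 they were HOXA3 (0.976), RIPK2 (0.974), MREG (0.967), MARCH7 (0.965) and SCG2 (0.963). These are the highest of many correlations over 8 libraries that fall into 4 groups and share their scaling, and are given only as likeness. No library strand is stated, so reads of genes that overlap on opposite strands cannot be split by strand. DUSP6 shares 1875 exon bases with the antisense gene AC024909.2, which was given at most 16.44 counts against 267 or more for DUSP6. ETV4 shares 68 exon bases with DHX8 on the opposite strand. ETV5 shares 164 with DGKG on the same strand, where strand could not split reads. DHX8 and DGKG had at least 2668 and 311 counts in a library. The antisense genes SPRY4-AS1 (3 to 18 counts) and ETV5-AS1 (0 to 5 counts) share none with their partners.

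In the cascade above these genes, calls went in both directions with AXL shRNA. Of 25 listed genes from RAS to ERK, 9 rose and 4 fell with AXL shRNA, and 3 rose and 1 fell with TP-0903 (median log2 fold change 0.14 and 0.10). Over all tested genes 18.5% rose and 19% fell with AXL shRNA, and 4.9% rose and 6.35% fell with TP-0903. The count that fell with AXL shRNA was near that share. MAP2K1, the kinase MEK1, rose with AXL shRNA: it had 130 and 144 CPM, against 78.7 and 70.5 CPM with control shRNA (log2 fold change 0.87, adjusted p = 0.00141 in edgeR). HRAS fell to 9.90 and 9.58 CPM with AXL shRNA, against 27.0 and 29.96 CPM with control shRNA, and rose to 74.8 and 62.7 CPM with TP-0903, against 36.6 and 35.0 CPM in control cells. The scaffold KSR1 fell with AXL shRNA to 34.0 and 30.4 CPM, against 62.1 and 68.1 CPM (log2 fold change -1.02, adjusted p = 0.00109 in edgeR). Its mean with AXL shRNA, 32.2 CPM, was near the 31.1 CPM of control cells and the 33.3 CPM with TP-0903. Only the control shRNA group stood higher, at 65.1 CPM. NRAS fell with AXL shRNA as well, to 53.0 and 57.6 CPM, against 75.6 and 81.3 CPM (-0.50, adjusted p = 0.00865 in edgeR). FRS2, an adaptor of receptor signalling, rose with AXL shRNA (0.77, adjusted p = 0.00235) and with TP-0903 (0.54, adjusted p = 0.0241), where the adaptor SHC1 also rose (0.70, adjusted p = 0.0091) and ARAF fell (-0.45, adjusted p = 0.0485). The ARAF call held in 7 of 17 other settings and was lost without any 1 control, TP-0903 or control shRNA library (adjusted p 0.0768 to 0.224). FRS2 with TP-0903 held in 10 of 17 and was lost without any 1 control or TP-0903 library (0.0523 to 0.18), SHC1 was lost without control P17 (0.0751) or TP-0903 P17 (0.0833), and NRAS without AXL shRNA P15 (0.0532). FRS2 with AXL shRNA was lost on both TPM scales (0.085 and 0.0821). MAPK3, which encodes ERK1, had 6.64 and 11.2 CPM with AXL shRNA, 10.5 and 12.4 with control shRNA, 19.3 and 22.5 with TP-0903 and 24.5 and 24.4 in control cells. The receptor EGFR had 469 and 486 CPM with AXL shRNA, against 265 and 233 CPM with control shRNA (0.94, adjusted p = 0.00646 in edgeR), and 346 and 299 CPM with TP-0903, against 302 and 215 CPM in control cells (0.32, adjusted p = 0.288).

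Other relatives of the members were listed beside them. As background, 18.5% of all tested genes rose and 19% fell with AXL shRNA, and 4.9% rose and 6.35% fell with TP-0903. Of 11 other dual-specificity phosphatases 2 rose with AXL shRNA (DUSP14 and DUSP2) and 2 with TP-0903 (DUSP3 and DUSP14), and 0 fell in either by edgeR, DESeq2 or limma-voom, with 1 lower in each at an unadjusted edgeR p under 0.05. DUSP14 had 38.5 and 40.2 CPM with AXL shRNA, against 19.2 and 22.0 CPM with control shRNA (log2 fold change 0.93, adjusted p = 0.00353 in edgeR), and 51.7 and 40.3 CPM with TP-0903, against 26.7 and 24.7 CPM in control cells (0.84, adjusted p = 0.0138). DUSP2 had 4.29 and 8.76 CPM with AXL shRNA, against 0 and 0.479 CPM with control shRNA, and at most 0.117 CPM in the other libraries. DUSP3 rose with TP-0903 (278 and 272 against 154 and 164 CPM; 0.79, adjusted p = 0.0115). With TP-0903 the DUSP3 and DUSP14 calls were lost without control P17, TP-0903 P17 or control P4 (adjusted p 0.0511 to 0.104). Of SPRY1, SPRY3 and SPRED3, 0 of 3 passed in either comparison in edgeR or limma-voom. With TP-0903 SPRED3 was higher in DESeq2 and at an unadjusted edgeR p under 0.05 (11.1 and 9.87 CPM, against 3.71 and 5.95 CPM in control cells).

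Among 12 other ETS and ternary complex factors 1 rose and 1 fell with AXL shRNA, and 0 rose and 1 fell with TP-0903 (1 rose in DESeq2, 0 in limma-voom, and 1 was higher and 3 were lower at an unadjusted edgeR p under 0.05). Shares of all tested genes were 18.5% higher and 19% lower with AXL shRNA, and 4.9% and 6.35% with TP-0903. ETS1 was the one that rose (51.9 and 91.6 against 23.4 and 36.7 CPM; log2 fold change 1.25, adjusted p = 0.0295 in edgeR). GABPA fell with AXL shRNA (-0.56, adjusted p = 0.0156) and with TP-0903 (-0.53, adjusted p = 0.0465). With TP-0903 the GABPA call held in 6 of 17 other settings and was lost without any 1 control, TP-0903 or control shRNA library (adjusted p 0.0664 to 0.273). With AXL shRNA, ETS1 and GABPA were lost without control shRNA P15 (0.147 and 0.0726 in that order) or AXL shRNA P3 (0.159 and 0.0845). Of 8 other genes of the AP-1 family and its relatives, 3 rose with AXL shRNA and 0 with TP-0903, and 0 fell, in edgeR, DESeq2 and limma-voom. At an unadjusted edgeR p under 0.05, 1 (JUN) was higher with TP-0903. With AXL shRNA JUN had 255 and 212 CPM, against 99.6 and 146 CPM (0.93, adjusted p = 0.0111), FOSL2 had 582.45 and 497 CPM, against 345 and 265 CPM (0.82, adjusted p = 0.00771), and FOSB had 3.29 and 7.35 CPM, against 1.57 and 1.38 CPM (1.85, adjusted p = 0.0201). JUN was lost without AXL shRNA P15 (0.0563), and FOSB without control shRNA P15 (0.0774), control shRNA P3 (0.0951) or AXL shRNA P3 (0.117).

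Of 22 further genes known as ERK outputs, 13 rose and 3 fell with AXL shRNA, with a median log2 fold change of 1.27, the highest of the 6 lists in that comparison, and 4 rose and 0 fell with TP-0903, with a median of 0.17. Among all tested genes 18.5% rose and 19% fell with AXL shRNA, and 4.9% rose and 6.35% fell with TP-0903. With TP-0903 DESeq2 called 7 higher and 2 lower, limma-voom 4 and 0, and an unadjusted edgeR p under 0.05 gave 8 and 2. CCND1 (cyclin D1) had 1512 and 1342 CPM with AXL shRNA, against 456 and 557 CPM with control shRNA (1.49, adjusted p = 9.48e-04 in edgeR), and 842 and 857 CPM with TP-0903, against 367 and 456 CPM in control cells (1.04, adjusted p = 0.00848). TRIB1 (1.70) and EMP1 (2.03) rose with AXL shRNA, and IL11 (-2.67), TRIB3 (-2.22), a target of the integrated stress response as well, and IER3 (-0.62) fell. IER3 averaged 64.3 CPM with AXL shRNA, near the 62.0 CPM of control cells, and 99.1 CPM with control shRNA. LGALS3 (1.07, adjusted p = 0.0293 in edgeR) rose with TP-0903. The IER3 call held in 10 of 17 other settings and was lost without AXL shRNA P15 (0.184), control shRNA P3 (0.189), AXL shRNA P3 (0.0532), control P17 (0.0607) or control P4 (0.0605). With TP-0903, CCND1 was lost without control P17 (0.0675) or TP-0903 P17 (0.0566), and LGALS3 without control P17 (0.0512), TP-0903 P17 (0.18) or control P4 (0.128). The 10 members, of which 1 rose and 2 fell with AXL shRNA, had a median of -0.10 in that comparison.

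**Figure D4:**
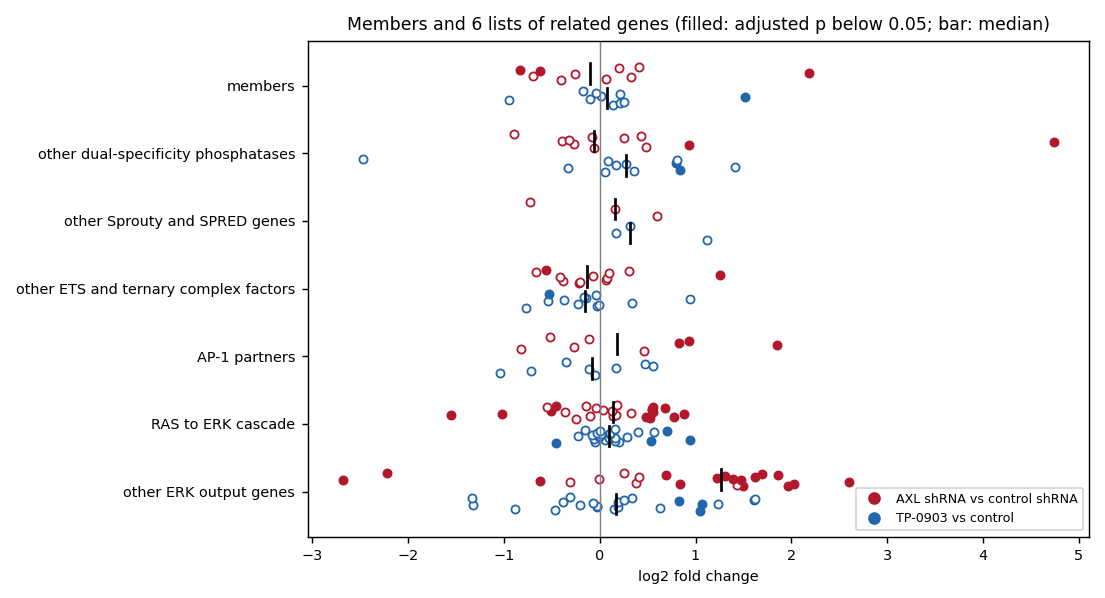
Log2 fold changes of the 10 members and of 6 lists of related genes, with AXL shRNA in red above TP-0903 in blue within each list; filled circles passed an adjusted p of 0.05 and the black bar is the median of a list. The bar of the other ERK output genes lies at 1.27 with AXL shRNA, while the bars of the members lie at -0.10 with AXL shRNA and 0.08 with TP-0903.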

How the data were processed

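Per the submitters' processing notes, reads were processed with STAR (version 2.5.3a) and RSEM, with GRCh38 as the build. The authors deposited, for each gene, RSEM expected counts without normalization. TPM values, also from the authors, are scaled for transcript length and depth. The deposited FPKM values were not used. Effective lengths, as deposited, entered 1 alternative as offsets. No strand is stated in the labels. Expected counts were rounded to whole numbers, filtered with filterByExpr and scaled by TMM. All 8 libraries entered a single quasi-likelihood fit in edgeR (4.0.16, R 4.3.3) with 1 term per group, two-sided, with Benjamini-Hochberg adjustment over 17676 genes and a threshold of 0.05. The SE is the log2 fold change divided by the square root of F, the 95% intervals use the fit's total degrees of freedom, and the biological coefficient of variation was 21.5%. Counting error did not cover the spread within groups for 48.1% to 53.7% of genes. The fit was tested on simulated data.

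Members and lists were chosen with earlier results of these data known. Named genes are the members, AXL, EGFR and MAPK3, up to 3 genes of each list and direction with the smallest p, and the 5 genes most like DUSP6 and SPRY4; some genes that the rule names are not reported here. It was checked whether the P number pairs libraries. Across genes, deviations from group means correlated at 0.444 and 0.450 for the same number, against 0.171 to 0.309 between P15 and P17 libraries. All of the latter pairs set a hairpin library against a TP-0903 or control library. The check thus cannot tell a shared number from sharing the hairpin or the drug part of the design. The number was taken to pair libraries, and the block is given where it changes a call. That check used the same libraries, and the block leaves fewer residual degrees of freedom than the main fit. Alternatives were DESeq2 (1.42.0) and its size factors, no filter, limma (3.58.1) with voom or on log2 TPM plus 1 or 0.1, effective lengths, the block, 4 libraries alone and each library left out.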

Additional observations from a re-analysis of the deposited data

Results flagged for a closer look

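For 7 of the genes named above, the TP-0903 effect and the AXL shRNA effect differed in edgeR's test of the difference itself (log2 scale, adjusted over all genes). SPRED1 (0.642, adjusted p = 0.0328) and SPRED2 (1.04, adjusted p = 0.00559) are members. SPRED2 was lower in 2 of 2 AXL shRNA libraries than in both controls and higher in 2 of 2 TP-0903 libraries, in CPM; in TPM the TP-0903 libraries were 1.19 (P17) and 0.887 (P4) times their controls. The SPRED1 value did not pass with effective lengths as offsets (adjusted p = 0.115). In the cascade, HRAS (2.49, adjusted p = 8.73e-04) and KSR1 (1.11, adjusted p = 0.005) had the higher effect with TP-0903, and MAP2K1 (-0.714, adjusted p = 0.0188) the lower. For KSR1 the group means were 32.2 CPM with AXL shRNA, 33.3 with TP-0903 and 31.1 in control cells, against 65.1 with control shRNA. Of the ERK output genes, TRIB1 (-1.36, adjusted p = 0.00355) and EMP1 (-1.88, adjusted p = 0.00653) had the lower effect with TP-0903. HRAS is the one gene of the 7 that passed in both comparisons, in opposite directions.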

How the results depend on the processing

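The rise of FOSL1 and the fall of SPRED2 with AXL shRNA passed in 17 of 17 alternatives. SPRED1 passed in 14 and was lost on both TPM scales (-0.33 and -0.36) and with effective lengths (-0.15); FOSL1 with TP-0903 passed in 9. The replicate block called 9138 genes with AXL shRNA, 4647 with TP-0903 and 6530 for the difference of effects, against 6627, 1989 and 3645 without it. With the block, members called were 2 higher and 4 lower with AXL shRNA, and 1 higher and 1 lower with TP-0903. Shares of all tested genes in that fit were 25.6% and 26.1% with AXL shRNA, and 12.9% and 13.4% with TP-0903. With no filter, TP-0903 called 3515 genes, members lower were 4 with AXL shRNA and 1 with TP-0903, and 8 members passed between AXL shRNA and control. Of the 31048 genes then tested, 3962 were lower with AXL shRNA and 1833 with TP-0903. Between AXL shRNA and control 3745 were higher and 3864 lower. DESeq2 called 1 member lower with TP-0903. Limma-voom and limma on log2(TPM + 1) called 0 members higher with TP-0903. Effective lengths left 1 member lower with AXL shRNA, 1 for the difference of effects and 2 between control shRNA and control, and that last count was also 2 on both TPM scales and with 4 libraries alone. Leaving out a library gave 4408 to 6105 genes with AXL shRNA (lowest without control shRNA P15), 489 to 1727 with TP-0903 (489 without TP-0903 P17, 584 without control P17, 898 without control P4 and 1089 without TP-0903 P4) and 1855 to 2670 for the difference. The library then alone in its group was assumed to vary like the other groups. Member counts without a library were 0 to 1 higher with TP-0903, 1 to 2 for the difference and 1 to 3 between control shRNA and control. On log2(TPM + 1) the median of all genes moved to -0.15 with AXL shRNA, and 31.3% of called genes were higher. Of 493 values for named genes of the lists under these alternatives, 63 lost the call, 46 of them without 1 library, and 0 changed sign.

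Sign changed for values that had not passed. On log2(TPM + 1) and log2(TPM + 0.1), DUSP5 with AXL shRNA was -0.197 and -0.201, SPRY2 -0.0624 and -0.0643, SPRY4 with TP-0903 0.00638 and 0.00861, the DUSP6 difference 0.325 and 0.383 and the SPRY2 difference 0.0112 and 0.00884. With effective lengths, SPRY4 with TP-0903 was 0.046 and the DUSP6 difference 0.194. Without 1 library at a time, DUSP5 ran from -0.272 to 0.329 with AXL shRNA, and with TP-0903 DUSP5 ran from -0.261 to 0.968, DUSP6 from -0.0797 to 0.728, SPRY2 from -0.234 to 0.215, SPRY4 from -0.382 to 0.113, SPRED1 from -0.0222 to 0.0913, ETV5 from -0.299 to 0.165 and AXL from -0.0636 to 1.06. The differences of effects ran from -0.32 to 0.91 for DUSP5, -0.442 to 0.404 for DUSP6, -0.436 to 0.012 for SPRY2, -0.674 to 0.269 for ETV4 and -0.0417 to 0.424 for ETV5. The cause of these changes was not tested. With 2 libraries a group, the 95% intervals of DUSP5 and DUSP6 are wide, which limits what can be read from values that did not pass.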

Other observations

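The effective length of SPRED1, RSEM's abundance-weighted transcript length, was lower in all 4 treated libraries than in all 4 control libraries: 4761 and 3992 bases with AXL shRNA against 6297 and 6074 with control shRNA, and 5110 and 5110 with TP-0903 against 6330 and 6091 in control cells. Over the members the highest effective length was 1.59 times the lowest for SPRED1, 1.41 times for DUSP6 and 1.27 times for SPRED2 and ETV5. The pattern was noticed after the values were seen and carries no test. Transcript-level estimates were not used here.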
